A study of Mus musculus with 12 samples.

Results

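Axon guidance genes encode the secreted and membrane-bound cues, and the receptors for them, that steer growing axons, and the genes described here are the semaphorins, plexins, neuropilins, ephrins, Eph receptors, Slits, Robos, netrins and netrin receptors. Probe sets were taken where their single gene symbol began with Sema, Plxn or Unc5, was Efna, Efnb, Epha, Ephb or Ntn with a number, or was Slit1 to Slit3, Robo1 to Robo3, Nrp1, Nrp2, Dcc or Neo1. Of 18193 genes with a single symbol on the array, 71 matched, with 160 of the 45101 probe sets. Plxna4os1, Unc50 and Unc5cl match by spelling and belong to none of these families, so 68 genes are counted below, each by its brightest probe set. Of these, 59 were bright enough to be tested and 9 were not, namely Efna4, Epha1, Epha2, Epha3, Epha6, Ephb4, Ntn3, Ntn5 and Robo3. No member passed the brightness filter through 1 group alone.

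In development these cues attract or repel the growth cone through receptors that act on its cytoskeleton. Semaphorins signal through plexins, with neuropilins as co-receptors for most of the secreted class 3 members. Slits repel through Robo receptors, netrins attract through Dcc and repel through Unc5 receptors, and membrane-bound ephrins and Eph receptors signal into both of the cells that carry them. Many of these genes stay on in the adult cord, where astrocytes, neurons, oligodendrocytes and microglia express different members and where several are known from studies of injury and scarring.

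SOD1 G93A mice carry a human mutant SOD1 transgene that is expressed in most cell types, so the astrocytes are not the only mutant cells in the tissue. All animals were male and on a backcrossed C57Bl/6 J Ola/Hsd background, with non-transgenic (NTg) littermates as controls. Astrocytes were cut by laser from lumbar spinal cord sections, 1500 or more from each animal. There were 4 groups of 3 mice, SOD1 G93A and NTg at the symptomatic age of 90 days and, as other animals, at the late-stage age of 120 days, with 1 Affymetrix array per mouse. Signals are given as log2(signal + 7), quantile normalized within each age, so that levels cannot be compared between ages, and levels of different genes cannot be compared because each probe set binds differently. Log2 fold changes are SOD1 G93A over NTg at the same age, and the words rose and fell are kept for an adjusted p under 0.05 in limma. The offset of 7 makes the fold changes of dim genes too small. The 3 mice of a group limit the precision of every value.

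Deposited array medians were 24.9 to 30.4 at 90 days, 38.8 to 55.2 in SOD1 G93A mice at 120 days, against 27.9 to 37.1 in NTg mice at 120 days. SOD1 G93A replicate 3 at 120 days stood apart, with a mean correlation of 0.835 with the other arrays of its group, against 0.880 or more on every other array. All 10 astrocyte markers checked were above the test's brightness filter, and none of them was at 0 on any array. The captured material also carried neuronal, oligodendrocyte and microglial transcripts. In such bulk samples, fewer cells of a type and less RNA per cell cannot be told apart.

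Promoters are shown for Slit2 and Plxnb2, the 2 members that passed the test at 120 days by their brightest probe set, in opposite directions. Each window runs from 250 bases before to 50 bases after the start of the transcript in RefSeq (GRCm38.p6). Slit2 lies on the plus strand (chr5:47982905-47983204) and Plxnb2 on the minus strand (chr15:89180739-89181038). Capitals mark the GC box (GGGCGG, read on both strands, so CCGCCC also counts) and the TATA box (TATAAA).
Slit2: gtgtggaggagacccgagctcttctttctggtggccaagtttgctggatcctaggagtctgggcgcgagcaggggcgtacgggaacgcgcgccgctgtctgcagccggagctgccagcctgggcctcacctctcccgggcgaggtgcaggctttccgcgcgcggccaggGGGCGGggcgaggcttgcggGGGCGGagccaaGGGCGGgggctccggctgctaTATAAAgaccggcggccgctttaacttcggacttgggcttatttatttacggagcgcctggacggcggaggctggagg
Plxnb2: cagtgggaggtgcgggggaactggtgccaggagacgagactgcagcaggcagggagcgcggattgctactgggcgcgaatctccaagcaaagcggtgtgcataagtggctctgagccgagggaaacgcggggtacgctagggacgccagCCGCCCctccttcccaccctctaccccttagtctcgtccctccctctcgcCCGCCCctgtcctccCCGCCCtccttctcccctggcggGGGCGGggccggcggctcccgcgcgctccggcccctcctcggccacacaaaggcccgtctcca
Slit2 held 3 GC boxes and 1 TATA box, and Plxnb2 held 4 GC boxes and no TATA box. Neither window held a CCAAT box (CCAAT on either strand). Of 32851 mouse promoter windows of this length, 35.7% held a GC box, 13.6% a TATA box and 37.4% a CCAAT box. Slit2 had 30 CG pairs and Plxnb2 27, where the median window had 7. A second listed start of Plxnb2 (chr15:89173902-89174201) had 15 CG pairs and 3 GC boxes. These matches describe the letters and say nothing of what binds there.

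At 90 days none of the 59 tested members rose or fell, where 0.138% of all 26132 probe sets tested did (limma, adjusted p under 0.05), 0.115% higher and 0.023% lower. The lowest adjusted p was 0.660, for Plxnb2, and 4 members had an unadjusted p under 0.05 (Plxnb2, Sema3a, Sema3d and Slit2), where 5.61% of all probe sets did. At 120 days 2 members passed, Plxnb2, which rose, and Slit2, which fell. Together they were 3.39% of the members, where 7.45% of all probe sets passed, 3.6% higher and 3.86% lower. An unadjusted p under 0.05 was reached by 14 members, where 25.8% of all probe sets reached it. By a 2-fold change with an unadjusted p of at most 0.05, the size and level in the study's methods, 6 members counted (Plxnb2, Sema3b, Sema5b, Sema6c, Slit2 and Unc5d), where 12.7% of all probe sets did. None did so at 90 days, where 1.77% of all probe sets did. Values above 0 were found for 31 members at 90 days, where 49.7% of all probe sets had one, and for 24 at 120 days, where 45.5% had one. The median log2 fold change of the members was 0.00345 at 90 days and -0.0857 at 120 days, against -0.00218 and -0.0691 over all probe sets. Under median centring, another way of scaling the arrays, the median over all probe sets at 120 days moved to -0.325 and that of the members to -0.41, and 19% of all calls were higher in SOD1 G93A mice, where the quantile normalized data gave 48.3%. Signs at that age are therefore relative to the scaling. Of the 24 members with values above 0 at 120 days, 8 turned negative under median centring (Efna3, Efnb3, Neo1, Plxna2, Plxnb3, Sema4b, Sema4g and Unc5b). In the data as deposited Plxna2 turned too, and Efna1, Efnb2, Epha8, Sema3g and Sema6b turned positive. At 90 days 6 members turned under one or the other of these scalings (Efna3, Epha10, Ephb1, Plxna3, Sema3g and Unc5d), none with a value over 0.0723 in size.

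**Figure D1:**
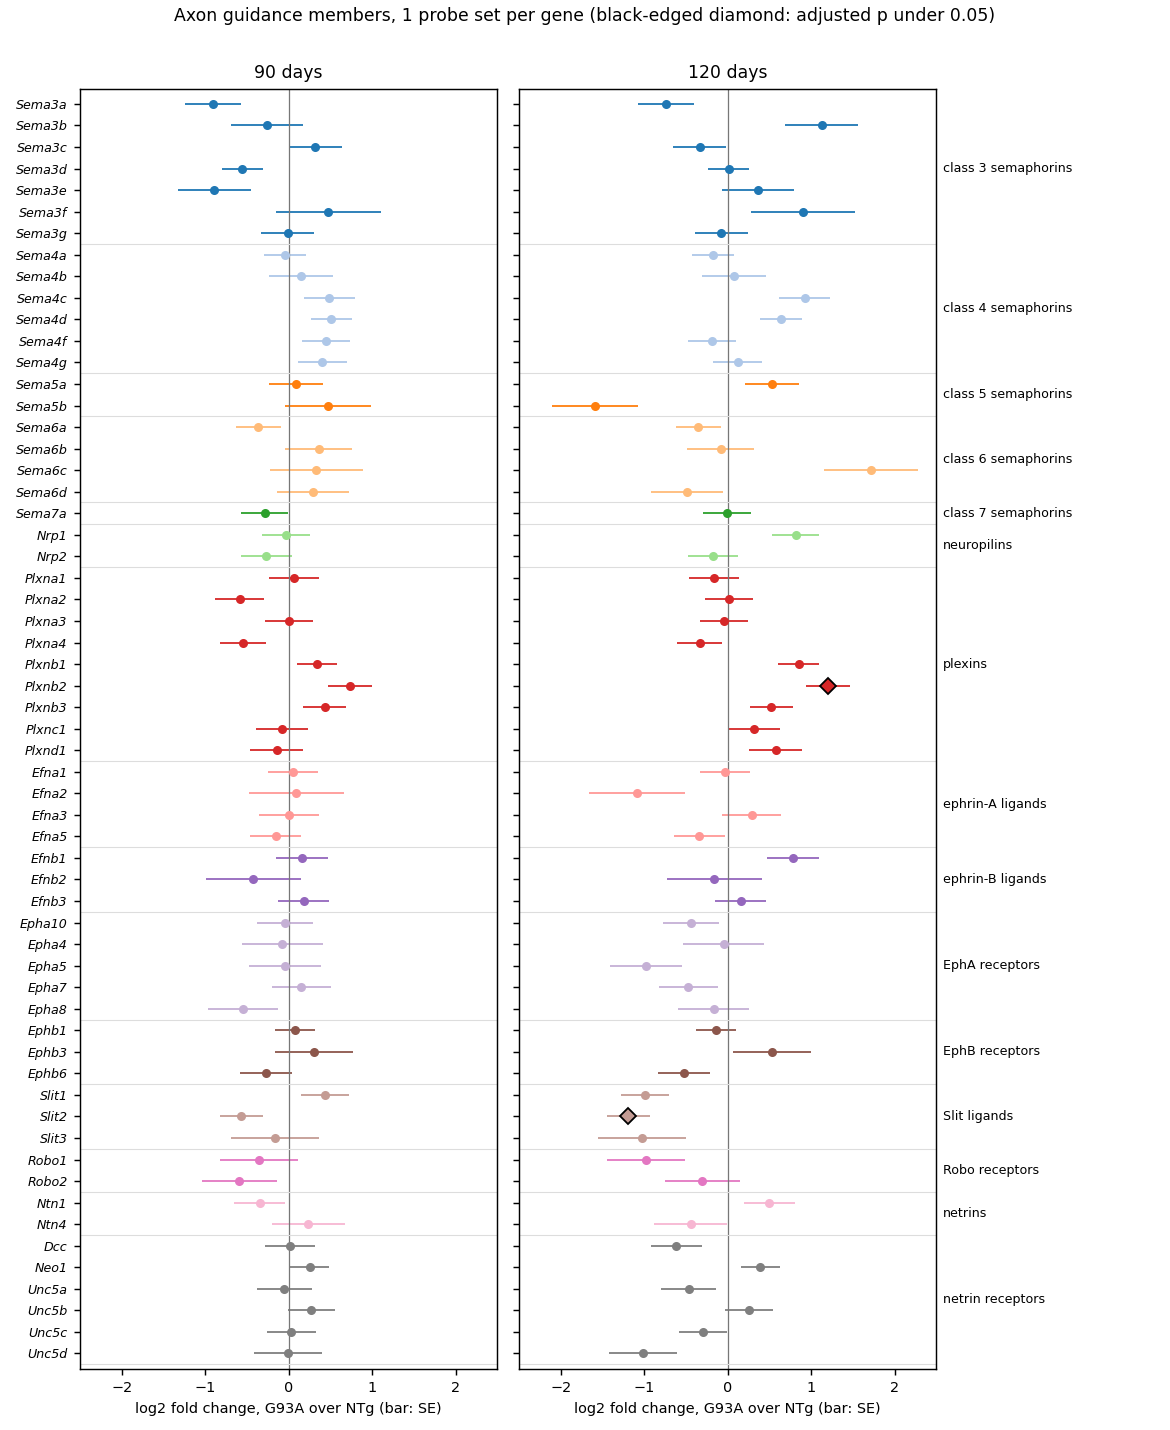
Log2 fold change between SOD1 G93A and NTg mice (x axis, log2 units, bar: SE) for each of the 59 tested guidance genes (y axis, by family) at 90 days on the left and 120 days on the right. Black-edged diamonds mark an adjusted p under 0.05, which only Plxnb2 and Slit2 reached, both at 120 days.

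Slit2, a secreted repellent of axons and migrating cells, was the member with the lowest adjusted p. At 120 days its log2 signals were 7.11, 7.60 and 7.62 in SOD1 G93A mice, against 8.51, 8.68 and 8.71 in NTg mice. Every SOD1 G93A mouse lay below every NTg mouse, by 0.89 log2 units or more. Slit2 fell by 1.19 on the log2 scale, to 0.438 of the NTg level (standard error, SE, 0.26, limma adjusted p = 0.0163). At 90 days it had 7.94, 7.63 and 8.14 in SOD1 G93A mice and 8.13, 8.73 and 8.54 in NTg mice, so the groups overlapped by the single value of 8.14. The log2 fold change there was -0.57 (adjusted p = 0.874). A dimmer Slit2 probe set had 6.14, 6.23 and 5.51 in SOD1 G93A mice and 6.89, 7.24 and 6.80 in NTg mice at 120 days, also without overlap, with a log2 fold change of -1.01 (adjusted p = 0.0897). The call was lost without NTg replicate 2 (adjusted p = 0.0772) or NTg replicate 3 (0.071) of that age.

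The other Slits lay on the same side at 120 days without passing the test. Slit1, a Slit expressed mainly in the nervous system, had 6.36, 5.67 and 5.61 in SOD1 G93A mice and 6.64, 7.19 and 6.79 in NTg mice. These groups did not overlap, and the log2 fold change was -0.99 (SE 0.29, adjusted p = 0.0534). Its second probe set went the other way, with 6.26, 6.11 and 6.97 in SOD1 G93A mice and 5.15, 6.25 and 5.91 in NTg mice and a log2 fold change of 0.68 (adjusted p = 0.262), so the 2 probe sets of Slit1 disagree. At 90 days Slit1 had 6.53, 6.38 and 5.94 in SOD1 G93A mice and 6.17, 5.76 and 5.61 in NTg mice, with a log2 fold change of 0.44 with the sign opposite to that at 120 days. Slit3, the third ligand, was dim and scattered, with 5.35, 3.35 and 3.51 in SOD1 G93A mice and 4.23, 5.35 and 5.73 in NTg mice at 120 days. Its log2 fold change of -1.03 had a SE of 0.53 (adjusted p = 0.243). All 3 Slits had negative values at 120 days under each of the 4 scalings tried. Slit1 passed under median centring (limma adjusted p = 0.0292) and with quantile normalization over all 12 arrays (0.0341).

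The Robo receptors, which bind Slits, were both lower in the mean. Robo1 had 7.85, 7.88 and 7.50 in SOD1 G93A mice at 120 days, against 8.93, 8.58 and 8.65 in NTg mice. Again no value overlapped, and the log2 fold change was -0.98 (SE 0.47, adjusted p = 0.208). At 90 days its values of 6.20, 7.52 and 8.04 in SOD1 G93A mice and 8.03, 8.21 and 6.56 in NTg mice were too scattered to separate the groups. The second Robo1 probe set, with 6.94, 6.71 and 6.19 in SOD1 G93A mice and 7.80, 7.44 and 7.66 in NTg mice, fell by 1.02 at 120 days (adjusted p = 0.0435). Robo2, which shares midline repulsion with Robo1, had log2 fold changes of -0.59 at 90 days and -0.31 at 120 days. Its late-stage values of 5.31, 4.55 and 6.57 in SOD1 G93A mice spanned those of the NTg mice, 5.82, 5.70 and 5.84, and without the SOD1 G93A replicate 3 that stood apart its log2 fold change was -0.87 (adjusted p = 0.207). Robo3 was not tested.

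Plxnb2, a receptor for class 4 semaphorins, was the only member that rose by its brightest probe set. At 120 days it had 7.95, 8.08 and 8.39 in SOD1 G93A mice and 7.28, 6.61 and 6.92 in NTg mice. The groups were 0.67 log2 units apart at their nearest values. No second Plxnb2 probe set was tested. The log2 fold change was 1.2, or 2.30-fold (SE 0.26, limma adjusted p = 0.0183). Plxnb2 was higher in all 3 SOD1 G93A mice at 90 days too, with 8.06, 7.86 and 7.55 against 7.17, 6.79 and 7.30 in NTg mice. The log2 fold change of 0.74 did not pass the test at that age (adjusted p = 0.660). The late-stage call was lost under median centring (0.0543), with that age fitted alone (0.0567), and without NTg replicate 2 (0.104) or NTg replicate 3 (0.071) of that age.

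The other B plexins had positive values at both ages. Plxnb1, the receptor best known for binding Sema4d, had 8.04, 8.33 and 8.25 in SOD1 G93A mice at 120 days, against 7.70, 7.27 and 7.11 in NTg mice. The log2 fold change was 0.85 (SE 0.25, adjusted p = 0.0521), and the groups did not overlap. At 90 days they also lay apart, with 9.0, 9.08 and 9.28 in SOD1 G93A mice and 8.87, 8.50 and 8.97 in NTg mice, a smaller log2 fold change of 0.34. Plxnb3 had log2 fold changes of 0.43 at 90 days and 0.52 at 120 days, and its probe set may bind other transcripts. At 90 days its 9.39, 9.52 and 9.61 in SOD1 G93A mice lay above 9.21, 8.98 and 9.04 in NTg mice, and at 120 days the groups overlapped. Of the 59 members, 6 had groups that did not overlap at 90 days, where 11.3% of all probe sets had. Of these 6, 3 lay wholly higher in SOD1 G93A mice, and these were the 3 B plexins, where 5.74% of all probe sets lay wholly higher. Under median centring Plxnb3 turned to -0.05 at 120 days, while Plxnb1 and Plxnb2 kept their sign under each of the 4 scalings.

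None of the A, C and D plexins passed the test. Plxna2, a partner of neuropilins for class 3 semaphorins, had 7.74, 7.39 and 7.17 in SOD1 G93A mice at 90 days, against 7.86, 7.66 and 8.55 in NTg mice, with a log2 fold change of -0.59 (adjusted p = 0.925). At 120 days it had 0.02, which was -0.47 under median centring. Plxna4, of the same group, was lower in every SOD1 G93A mouse at 90 days, with 6.82, 6.29 and 6.81 against 7.41, 7.12 and 7.05 in NTg mice (log2 fold change -0.55, adjusted p = 0.929). Plxnd1, the endothelial receptor for Sema3e, was higher in every SOD1 G93A mouse at 120 days, with 6.49, 6.18 and 6.91 against 6.01, 5.77 and 6.08 in NTg mice (log2 fold change 0.57, adjusted p = 0.277). Over the family, 6 of 9 plexins had positive values at 120 days in the quantile normalized data and 4 of 9 under median centring.

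**Figure D2:**
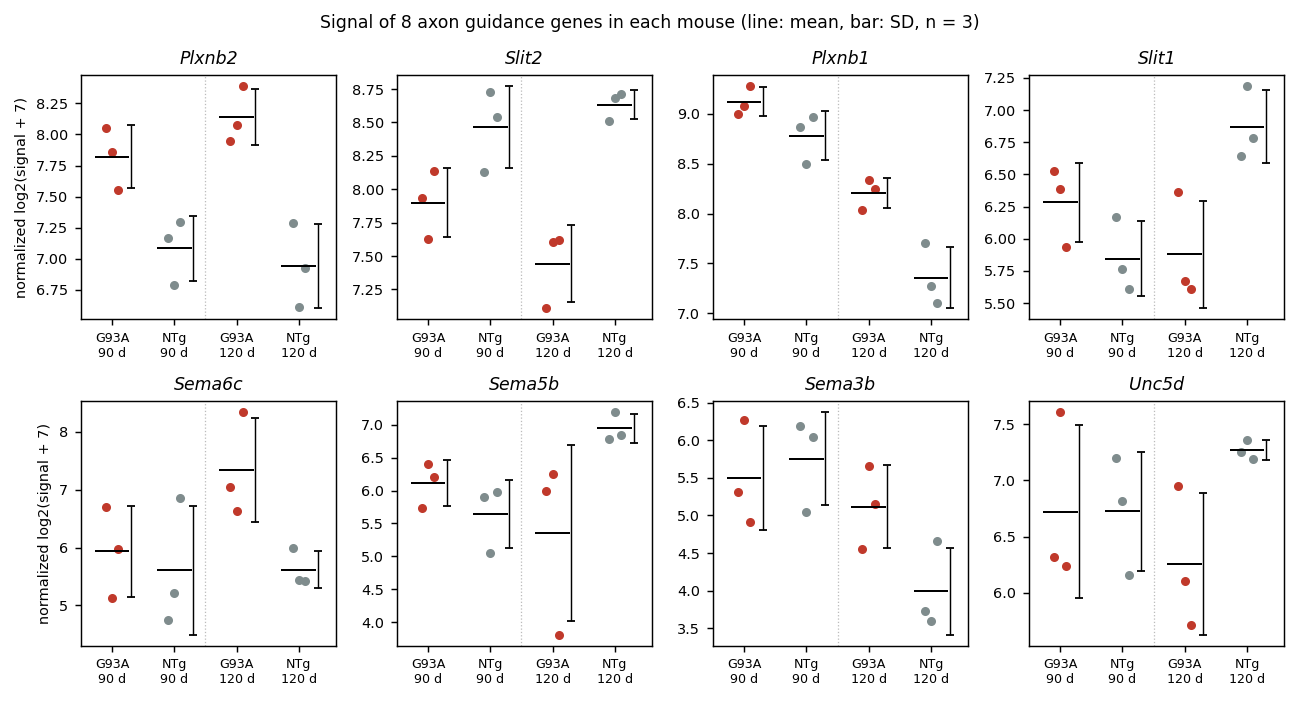
Normalized log2(signal + 7) (y axis) of 8 guidance genes in each mouse, with SOD1 G93A (red) and NTg (grey) mice at 90 days left of the dotted line and at 120 days right of it (line: mean, bar: SD, n = 3). At 120 days the SOD1 G93A mice lay wholly above the NTg mice for Plxnb2, Plxnb1 and Sema6c and wholly below them for Slit2, Slit1, Sema5b and Unc5d, while Sema3b overlapped.

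The neuropilins bind class 3 semaphorins and vascular growth factors. Nrp1 had 8.25, 8.91 and 8.61 in SOD1 G93A mice at 120 days, against 7.60, 7.54 and 8.19 in NTg mice. The lowest SOD1 G93A value lay just above the highest NTg value, and the log2 fold change was 0.81 (SE 0.28, adjusted p = 0.0923). At 90 days it was -0.03. Nrp2, the co-receptor favoured by Sema3f, had log2 fold changes of -0.27 and -0.18 at 90 and 120 days, with overlapping groups at both ages.

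Of the 20 semaphorins, all tested, none rose or fell at either age by its brightest probe set, and at 120 days 10 had positive and 10 negative values. Among the secreted class 3 members, Sema3a, the classic growth cone collapsing factor, had the smallest p at 90 days, with 7.31, 6.59 and 6.62 in SOD1 G93A mice and 7.17, 7.94 and 8.13 in NTg mice. The log2 fold change was -0.91 (SE 0.33, adjusted p = 0.684). At 120 days it had 5.75, 6.38 and 6.40 in SOD1 G93A mice and 6.66, 7.35 and 6.74 in NTg mice, now without overlap, and a log2 fold change of -0.74 (adjusted p = 0.178). Sema3a was thus lower in the mean at both ages and passed at neither.

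Sema3d and Sema3e were lower in all 3 SOD1 G93A mice at 90 days alone. Sema3d had 4.76, 4.53 and 4.88 in SOD1 G93A mice, against 5.11, 5.48 and 5.25 in NTg mice (log2 fold change -0.56, adjusted p = 0.856), and a log2 fold change of 0.01 at 120 days. Sema3e, the Plxnd1 ligand, had 4.55, 5.69 and 5.76 in SOD1 G93A mice and 5.84, 6.10 and 6.72 in NTg mice (log2 fold change -0.89, adjusted p = 0.925), and 0.36 at 120 days. Together with Plxna4 these were the 3 members wholly lower at 90 days, where 5.56% of all probe sets lay wholly lower. Sema3b, another secreted class 3 member, had 4.56, 5.65 and 5.15 in SOD1 G93A mice at 120 days, against 3.73, 3.6 and 4.65 in NTg mice. Its log2 fold change of 1.13 (SE 0.43, adjusted p = 0.125) came with groups that overlapped by 0.09 log2 units, and at 90 days the value was -0.26.

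Class 4 semaphorins are membrane proteins, and several bind B plexins. Sema4c, a Plxnb2 ligand, had 7.50, 7.38 and 7.75 in SOD1 G93A mice at 120 days, against 7.11, 6.26 and 6.49 in NTg mice. The groups did not overlap, with a log2 fold change of 0.92 (SE 0.31, adjusted p = 0.0803) after 0.49 at 90 days. Sema4d, a Plxnb1 ligand that oligodendrocytes and immune cells carry, had 7.79, 7.36 and 7.53 in SOD1 G93A mice and 7.01, 6.88 and 6.88 in NTg mice at 120 days, again wholly apart (log2 fold change 0.64, adjusted p = 0.127). At 90 days it had 7.58, 6.97 and 7.33 in SOD1 G93A mice and 6.49, 6.84 and 7.02 in NTg mice (log2 fold change 0.51, adjusted p = 0.922). A second Sema4d probe set, with 8.01, 7.68 and 7.64 in SOD1 G93A mice and 7.02, 6.69 and 6.39 in NTg mice at 120 days, rose by 1.08 on the log2 scale (adjusted p = 0.0242). Of the 6 class 4 genes, 5 had positive values at 90 days and 4 at 120 days, where median centring left 2 positive.

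The largest values on either side at 120 days belonged to class 5 and 6 members. Sema6c, a membrane semaphorin, had 7.05, 6.62 and 8.34 in SOD1 G93A mice and 6.0, 5.45 and 5.42 in NTg mice, without overlap, and a log2 fold change of 1.72 (SE 0.56, adjusted p = 0.0770). The value of 8.34 was that of the array that stood apart, and without it the log2 fold change was 1.28 (adjusted p = 0.210). With all arrays, this probe set passed in the data as deposited (limma adjusted p = 0.0451) and with quantile normalization over all 12 arrays (0.0446). The second Sema6c probe set, with 5.96, 6.21 and 7.34 in SOD1 G93A mice and 3.85, 4.08 and 4.77 in NTg mice, rose by 2.27 on the log2 scale (adjusted p = 0.0116). At 90 days Sema6c had 6.69, 5.13 and 5.98 in SOD1 G93A mice and 4.75, 5.22 and 6.85 in NTg mice, which overlap fully. Sema5b, a class 5 member with thrombospondin repeats, had 5.99, 6.25 and 3.81 in SOD1 G93A mice at 120 days, against 6.79, 7.19 and 6.85 in NTg mice. No value overlapped, and the log2 fold change was -1.59 (SE 0.51, adjusted p = 0.0736). The low value of 3.81 was again replicate 3, and without it the log2 fold change was -0.87 (adjusted p = 0.150). Sema5b passed under median centring (log2 fold change -1.82, limma adjusted p = 0.033) and under no other scaling tried.

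The remaining named members of classes 5 to 7 did not pass either. Sema5a, a class 5 guidance cue that can attract or repel, had a log2 fold change of 0.08 at 90 days and 0.53 at 120 days, where its 6.88, 6.62 and 6.85 in SOD1 G93A mice lay above 6.23, 6.45 and 6.06 in NTg mice (adjusted p = 0.316). Sema6a, a class 6 plexin ligand, had -0.36 and -0.35, and Sema6b had 0.36 and -0.09, the second of which was 0.30 in the data as deposited. Sema7a, which is anchored by lipid and binds integrins and Plxnc1, had -0.29 at 90 days and -0.01 at 120 days. The adjusted p of each was 0.316 or more at 120 days.

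No ephrin and no Eph receptor rose or fell by its brightest probe set. Among the ephrin-A ligands, which are held to the membrane by a lipid anchor, Efna2 had 6.96, 6.39 and 3.92 in SOD1 G93A mice at 120 days, against 7.15, 6.51 and 6.87 in NTg mice. Its log2 fold change of -1.09 (SE 0.57, adjusted p = 0.250) rested on replicate 3 and was -0.18 without it. The second tested Efna2 probe set had 0.18 at that age, so the 2 disagree in sign. Efna5 had -0.16 at 90 days and -0.34 at 120 days, and Efna1 0.05 and -0.04, the second of which was 0.28 in the data as deposited. Of the ephrin-B ligands, which span the membrane, Efnb1 had 6.71, 7.0 and 7.49 in SOD1 G93A mice and 6.33, 6.46 and 6.06 in NTg mice at 120 days, without overlap. The log2 fold change was 0.78 (SE 0.31, adjusted p = 0.131), after 0.16 at 90 days. Efnb2 had -0.42 at 90 days and -0.16 at 120 days, and 0.03 at 120 days in the data as deposited. Efnb3, a midline barrier ligand of the cord, had 0.18 and 0.15, and the second of these was -0.24 under median centring and 0.52 without replicate 3.

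All 5 tested EphA receptors had negative values at 120 days in the quantile normalized data, with a median of -0.44, and all but Epha8 did in the data as deposited. Epha5, the one with the smallest p, had 7.59, 7.07 and 6.36 in SOD1 G93A mice and 8.15, 7.91 and 7.89 in NTg mice. The groups did not overlap, and the log2 fold change was -0.98 (SE 0.43, adjusted p = 0.173). A second Epha5 probe set with little scatter, 5.81, 5.77 and 5.91 in SOD1 G93A mice and 7.08, 7.31 and 7.0 in NTg mice, fell by 1.3 on the log2 scale (adjusted p = 0.00512), and another had -1.29 (adjusted p = 0.0783). Epha4, a receptor for both ephrin classes that astrocytes carry after cord injury, had -0.05 by its brightest probe set. One of its 3 dimmer probe sets, with 6.08, 5.64 and 5.44 in SOD1 G93A mice and 6.67, 7.22 and 6.95 in NTg mice, fell by 1.22 on the log2 scale (adjusted p = 0.0467). Epha7, whose value was -0.47, had 0.03 without replicate 3. At 90 days Epha8 had the smallest p of the family, with a log2 fold change of -0.55 (adjusted p = 1.00).

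The EphB receptors gave no common direction. Ephb6, which lacks kinase activity, was lower in every SOD1 G93A mouse at 120 days, with 6.30, 6.58 and 6.23 against 6.63, 7.33 and 6.73 in NTg mice (log2 fold change -0.53, adjusted p = 0.305), and without NTg replicate 2 the value was -0.30. Ephb3 had 6.30, 5.91 and 8.35 in SOD1 G93A mice and 6.38, 6.25 and 6.35 in NTg mice. Its log2 fold change of 0.53 turned to -0.23 without replicate 3. Ephb1 had -0.14.

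Of the netrins, 2 could be tested. Ntn1, the floor plate attractant, had 5.80, 6.48 and 6.62 in SOD1 G93A mice and 5.91, 5.69 and 5.81 in NTg mice at 120 days (log2 fold change 0.50, adjusted p = 0.327) and -0.35 at 90 days. Ntn4, a netrin of basement membranes, had 0.24 at 90 days and -0.44 at 120 days, and the second value was 0.02 without replicate 3. Among the receptors, Unc5d, one of the repulsive Unc5 family, had 6.95, 6.11 and 5.72 in SOD1 G93A mice and 7.25, 7.36 and 7.19 in NTg mice at the late stage. The groups lay apart, with a log2 fold change of -1.01 (SE 0.41, adjusted p = 0.139) after a value near 0 at 90 days. Dcc, the attractive netrin receptor, had 6.57, 6.63 and 5.49 in SOD1 G93A mice at 120 days, against 7.04, 6.73 and 6.76 in NTg mice (log2 fold change -0.62, adjusted p = 0.216). Without replicate 3 the value was -0.26, and the 3 tested probe sets of Dcc disagreed in sign. Neo1, a relative of Dcc that also binds repulsive guidance molecules, lay the other way, with 10.31, 10.31 and 10.46 in SOD1 G93A mice and 10.28, 9.69 and 9.94 in NTg mice (log2 fold change 0.39, adjusted p = 0.313). All 5 of its probe sets were positive at that age, and its brightest turned to -0.10 under median centring. Unc5b had 0.27 at 90 days and 0.26 at 120 days, and the second value was -0.24 under median centring.

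Of the 59 members, 19 had groups that did not overlap at 120 days, where 32.4% of all probe sets had. In all, 10 lay wholly higher and 9 wholly lower in SOD1 G93A mice at 120 days, where 14% of all probe sets lay wholly higher and 18.5% wholly lower. The 10 were Efnb1, Neo1, Nrp1, Plxnb1, Plxnb2, Plxnd1, Sema4c, Sema4d, Sema5a and Sema6c. The 9 were Dcc, Epha5, Ephb6, Robo1, Sema3a, Sema5b, Slit1, Slit2 and Unc5d. As shares of the members these were 16.9% and 15.3%, near those of all probe sets.

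The choice of probe set mattered for several genes. The members had 100 tested probe sets, of which 0 rose or fell at 90 days and 7 at 120 days, 3 higher and 4 lower, or 7%, where 0.138% and 7.45% of all probe sets did at these ages. Besides those of Plxnb2 and Slit2, the 5 that passed were the dimmer probe sets of Sema4d, Sema6c, Epha4, Epha5 and Robo1 given above. Of 27 genes with 2 or more tested probe sets, all pointed the same way in 20 at 120 days and in 14 at 90 days. With the mean of a gene's probe sets in place of the brightest, 6 members passed at 120 days (Epha5, Plxnb2, Robo1, Sema4d, Sema6c and Slit2). Of all 12458 genes averaged in this way, 10.6% passed at that age. Sema4d rose by 0.86 and Sema6c by 1.99 on the log2 scale in those means, while Epha5 fell by 1.19 and Robo1 by 1.00.

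**Figure D3:**
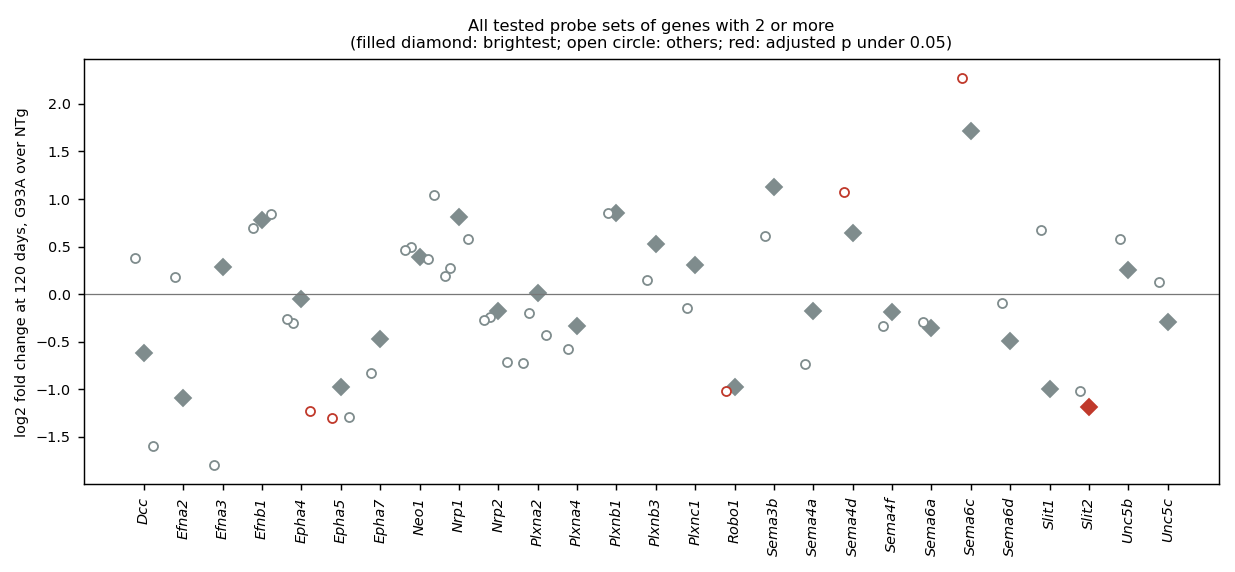
Log2 fold change at 120 days of SOD1 G93A over NTg mice (y axis) for every tested probe set of the 27 guidance genes with 2 or more (x axis), with the brightest as a filled diamond, the others as open circles and an adjusted p under 0.05 in red. Single dimmer probe sets of Epha4, Epha5, Robo1, Sema4d and Sema6c passed where the brightest did not, and the 2 probe sets of Slit1 lay on opposite sides of 0.

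Genes that act downstream of these receptors or beside them were followed in a list of 60, of which 58 were measured and tested. At 90 days none rose or fell, and the smallest p belonged to Farp2, a plexin-linked exchange factor, with a log2 fold change of -0.81 (adjusted p = 0.802). Next came Met, a kinase receptor that pairs with B plexins, with 0.98, Farp1 with 0.55 and Mical3 with 0.43. At 120 days 2 rose and 2 fell, or 6.9%, where 7.45% of all probe sets passed.

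Pak3, a neuronal kinase downstream of Rac and Cdc42, had 8.45, 8.04 and 8.20 in SOD1 G93A mice at 120 days, against 9.32, 10.45 and 9.72 in NTg mice, and fell by 1.60 on the log2 scale (SE 0.35, adjusted p = 0.0172). Farp2 had 6.40, 5.94 and 5.50 in SOD1 G93A mice and 6.92, 7.49 and 7.07 in NTg mice, and fell by 1.22 (adjusted p = 0.0418). Both groups of mice were wholly separated for both genes. Mical1, an enzyme that oxidizes actin downstream of plexins, had 7.53, 8.16 and 8.26 in SOD1 G93A mice and 6.86, 6.07 and 7.05 in NTg mice, and rose by 1.33 (adjusted p = 0.0230). Rgmb, a repulsive guidance molecule that binds Neo1, had 6.98, 7.54 and 7.56 in SOD1 G93A mice and 6.34, 6.17 and 6.30 in NTg mice, and rose by 1.09 (adjusted p = 0.0454). The mean of all Rgmb probe sets was -0.02, so the call rests on its brightest probe set. The probe sets of Farp2 and Mical1 may bind other transcripts. Under median centring neither gene that rose passed (adjusted p = 0.0501 for Mical1 and 0.0895 for Rgmb), while Pak3 and Farp2 did. With each age fitted alone only Pak3 passed, with an adjusted p of 0.0747 for Mical1 and 0.0624 for Rgmb. Without SOD1 G93A replicate 3 only Pak3 passed (adjusted p = 0.0378). Without NTg replicate 2 of that age none of the 4 passed, and without NTg replicate 3 only Mical1 did.

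Markers of other cell types moved with the genotype in the same arrays. All sums of marker signals here are of the deposited linear values, not the normalized ones. Summed signals of 10 neuronal markers were 7735 to 12958 in SOD1 G93A mice and 17814 to 21362 in NTg mice at 120 days. Nefl had the largest signal of the list, so it weighs most in these sums. Of the 10, 3 fell (Rbfox3, Snap25 and Nefl), and the list's median log2 fold change was -1.12. At 90 days these sums were 16844 to 19592 in SOD1 G93A mice and 21817 to 23899 in NTg mice. Motor neuron markers, 7 of 8 tested, summed to 195 to 449.5 in SOD1 G93A mice and 518 to 1464 in NTg mice at 120 days, with 2 that fell. Their sums at 90 days were 653.9 to 954.5 in SOD1 G93A mice and 998.8 to 3246 in NTg mice. At that age 1 fell (Chodl, log2 fold change -3.41, limma adjusted p = 0.0487). The lower values of Slit2, Pak3, Farp2 and the Epha5 and Robo1 probe sets stood beside lower neuronal and motor neuron sums.

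Microglial markers went the other way. Their sums were 7956 to 9725 in SOD1 G93A mice and 1469 to 1618 in NTg mice at 120 days, where 6 of the 8 tested rose with a median of 1.83, and 5825 to 9687 in SOD1 G93A mice and 2301 to 4479 in NTg mice at 90 days, where 1 rose. Astrocyte markers summed to 17771 to 27900.4 in SOD1 G93A mice and 15008 to 18797 in NTg mice at 120 days, and 3 of 10 rose (Gfap, Sox9 and Aldh1l1). Oligodendrocyte sums were 26554 to 40093 in SOD1 G93A mice and 17269.5 to 20759 in NTg mice at that age, with none of 5 markers past the test and a median of 0.35. Mbp alone made up 66.7% to 73.7% of each of these sums. Its normalized value was the same on all arrays of an age, so it could not pass the test. As deposited, Mbp had 18186 to 29553 in SOD1 G93A mice and 11516 to 14035 in NTg mice at 120 days. Without Mbp the sums were 7948 to 10540 in SOD1 G93A mice and 5021 to 6723 in NTg mice. No marker of any list was at 0 on an array. The higher values of Plxnb2, Mical1, Rgmb and the Sema4d and Sema6c probe sets stood beside the higher microglial sums. They also stood beside higher oligodendrocyte sums, with and without Mbp, and the 3 astrocyte markers that rose. What part these cell types had in any value of a guidance gene was not tested.

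**Figure D4:**
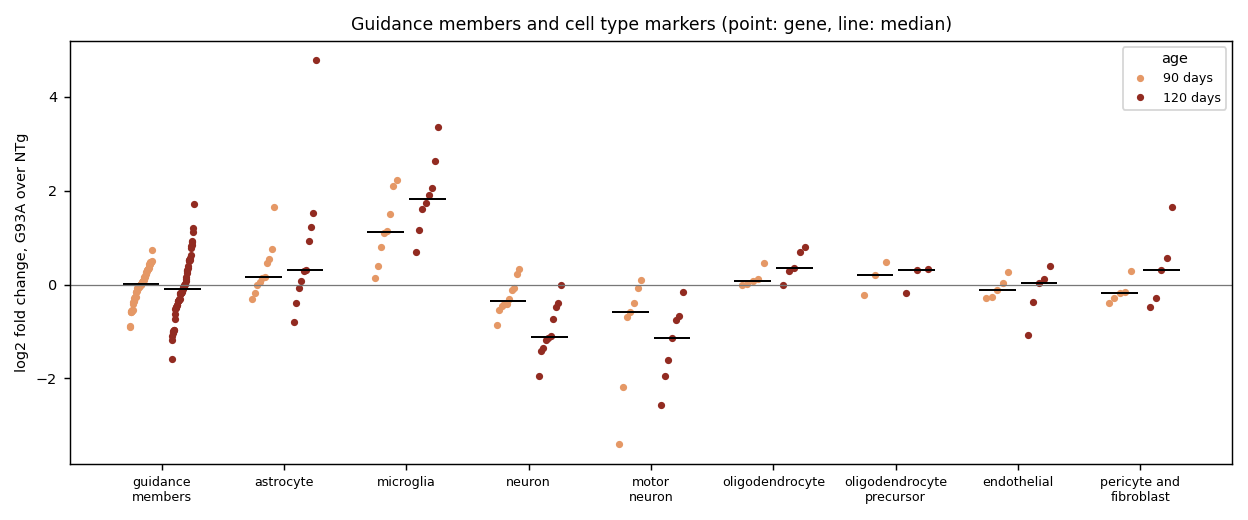
Log2 fold change between SOD1 G93A and NTg mice (y axis) of the 59 tested guidance genes and of the tested markers of 8 cell types (x axis; point: gene, line: median) at 90 and 120 days. Guidance genes centred near 0 at both ages, while at 120 days the microglial median was 1.83 and the neuronal median -1.12.

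Whether the genotype difference itself differed between the ages was tested in the same fit. None of the 59 members passed, where 0 of all probe sets did (limma, lowest adjusted p of a member 0.398), and 3 members had an unadjusted p under 0.05, where 9.24% of all probe sets did. Slit1 had a difference of -1.43 log2 units (SE 0.41, adjusted p = 0.398), from a value of 0.44 at 90 days and -0.99 at 120 days. Sema5b differed by -2.07 (adjusted p = 0.458) and Sema3b by 1.38 (adjusted p = 0.528). For Plxnb2 the difference was 0.46, with a 95% interval of -0.34 to 1.27, and for Slit2 it was -0.62, with an interval of -1.41 to 0.16. That both genes passed at 120 days and not at 90 days therefore does not show that the ages differ.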

How the data were processed

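Gene expression was measured on 12 Affymetrix mouse genome arrays, 1 per mouse and 3 mice per group. The deposited values are linear intensity values, which the authors computed by MAS5 from RNA amplified linearly in 2 rounds and scaled to a trimmed mean of 100 on each array. The MAS5 version is not given in the sources used here. The labels describe toluidine blue staining and the paper ALDH1L1 staining, and the PLIER values of the paper's own tests were not used here. No column was without a sample.

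An offset of 7 (20th percentile of the table) was added, log2 was taken, and arrays were quantile normalized within each age. Without 64 control probe sets, 26132 that exceeded their array's median at least 3 times were fitted in limma 3.58.1 (R 4.3.3) as 4 groups (8 residual degrees of freedom). Adjustment was by Benjamini-Hochberg over all of them, at a threshold of 0.05. SOD1 G93A minus NTg was estimated at each age, and so was the difference between ages. The steps were tested on simulated data, where far fewer probe sets were changed than passed in the real data. At 120 days 9.18% of 98 probe sets changed 2-fold and 61.2% of 98 changed 4-fold passed there. Of the unchanged probe sets 0.0267% passed. Most 2-fold changes were thus missed in the simulation. Platform annotation gave 1 symbol to 34958 probe sets, several to 932 and none to 9211, with symbols updated through RefSeq. Each gene is given by the probe set with the highest mean over the 12 arrays. Probe sets whose names end in _s_at or _x_at can bind other transcripts. Among the tested members these are the ones of Neo1, Plxnb3, Sema3f, Sema4a and Sema4f. Of the signalling genes that passed at 120 days, Mical1 and Farp2 are given by such probe sets.

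Members and lists were chosen with earlier results of these data known. Named genes are every member that passed, for each family the 2 members with the smallest unadjusted p at each age, and of the signalling list the 4 with the smallest p at each age. Other named genes were picked with their values in view. Alternatives were other scalings, offsets, filters, priors, array weights, each age fitted alone, a replicate block, the mean of a gene's probe sets, a 2-fold rule and leaving out each array. The sample titles number the mice within each group and do not say that equal numbers are matched. The numbers were therefore not used as pairs in the fit reported. Plots used matplotlib 3.10.9 (python 3.11.15).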

Additional observations from a re-analysis of the deposited data

How the results depend on the processing

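At 90 days no member and no gene of the signalling list passed under any adjusted alternative. At 120 days the count of members, 2 in the fit reported, was 6 by the 2-fold rule, 5 with quantile normalization over all 12 arrays (adding Plxnb1, Sema6c and Slit1), 6 with the offset at the 50th percentile, 5 with the filter at the 75th percentile, 1 with each age fitted alone (Slit2), 4 with the trended and robust prior, and 6 with the mean of all probe sets. Under median centring the members that passed were Sema5b, Slit1 and Slit2, all lower in SOD1 G93A mice. Plxnb2 did not pass there (limma adjusted p = 0.0543). In the data as deposited Plxnb2, Sema6c and Slit2 passed, where 9.29% of all probe sets did. The count for the difference between ages was 3 by the 2-fold rule, where 6.98% of all probe sets counted, and 0 otherwise. The signalling list, with 4 at 120 days, gave 9 under median centring, 2 with an offset of 1, 8 with the offset at the 50th percentile, 2 without a filter, 7 with the stricter filter, 1 with each age fitted alone and 8 with the trended prior. Over all probe sets the share that passed at 120 days also moved, with 7.45% in the fit reported, 13.4% under median centring (3500 calls, without Mical1 and Rgmb), 10.5% over all 12 arrays, 11.3% and 5.85% with the higher and the lower offset, 17.1% and 2.76% with the stricter filter and none, 2.9% with each age alone, 9.96% with the trended prior, 10.6% with probe set means and 1.84% to 9.45% with 1 array left out. With 1 array left out in turn, the members gave 0 to 5 and the signalling list 0 to 5. The members' count was 0 without NTg replicate 2 or NTg replicate 3 at 120 days and 5 without SOD1 G93A replicate 1 at 120 days. The signalling list gave 2 (Mical1 and Pak3) with 1 of these arrays left out, namely SOD1 G93A replicate 2, NTg replicate 1 and NTg replicate 2 at 90 days and NTg replicate 1 at 120 days. An alternative added after seeing the data left out SOD1 G93A replicate 1 and NTg replicate 3 at 90 days, whose deviations correlated at 0.455, and gave 4 members at 120 days (Plxnb2, Robo1, Sema6c and Slit2). In that alternative 8.97% of all probe sets passed at 120 days. The cause of these changes was not tested.

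The replicate number as a block gave 1 member at 120 days (Slit2, with a limma adjusted p of 0.0563 for Plxnb2) and 1 gene of the signalling list (Pak3). Over all probe sets 4.07% passed at 120 days with this block, against 7.45% in the fit reported. Deviations of same-numbered mice correlated at -0.266, 0.275 and -0.28 at 90 days and at -0.0654, 0.0352 and -0.00949 at 120 days. Those of differently numbered mice ran from -0.359 to 0.455 at 90 days. Deviations from a mean of 3 mice depend on each other, so these values cannot settle whether equal numbers are matched.

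Of 1626 comparisons of a named gene's value with an alternative, 1527 kept their sign and their side of the threshold and 31 changed sign. None of the values that changed sign had passed except that of Rgmb, which was -0.019 with the mean of all probe sets. Others that turned were Efnb3 at 120 days under median centring (-0.24), Nrp1 at 90 days (0.19) and Ephb3 at 120 days (-0.00429) with array weights, and Ntn4 (-0.13) and Nrp1 (0.024) at 90 days without both arrays named above. Leaving out arrays in turn, values at 90 days ran over -0.15 to 0.41 for Sema5a, -0.51 to 0.065 for Ephb6, -0.18 to 0.45 for Ntn4, -0.88 to 0.18 for Robo1, -0.24 to 0.11 for Nrp1, -0.51 to 0.060 for Nrp2, -0.015 to 0.18 for Efna1, -0.37 to 0.12 for Efna5 and -0.014 to 0.46 for Unc5b. At 120 days they ran over -0.26 to 0.20 for Sema7a, -0.13 to 0.52 for Efnb3, -0.34 to 0.0083 for Nrp2, -0.87 to 0.16 for Robo2, -0.75 to 0.031 for Epha7, -0.23 to 1.01 for Ephb3 and -0.84 to 0.023 for Ntn4. Plxnb2 stayed between 1.01 and 1.36 and Slit2 between -1.32 and -1.02. With 3 arrays a group and no background values used, small changes and dim genes could not be resolved.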
